A study of Homo sapiens with 6 samples.

Results

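ZNF genes are named for the zinc finger, a small fold in which 2 cysteines and 2 histidines hold a zinc ion, and most of the proteins carry a row of such fingers that reads DNA. The members described here were chosen by symbol and by level, as genes whose symbol is ZNF followed by a number and whose RPKM (mapped reads per unit of transcript length and of library size) was at least 2 in total RNA of non-transfected Hep G2 cells. They were 249 of the 528 ZNF symbols (47.2%) among 21863 gene symbols, of which 9891 (45.2%) reached the same floor. Hep G2 is a human liver cancer cell line. Non-transfected cells (NT) were compared with cells taken 24 h after transfection of a miR-195 mimic or a miR-497 mimic, each at 5 nM. From each of the 3 conditions, 1 library was made of total RNA and 1 of RNA bound to Argonaute 2, the protein that carries microRNAs to their targets (Ago2-IP), which gives 6 libraries and no replicate. No test between conditions was therefore possible, and no cells transfected with a control RNA were among these libraries, so the effect of a mimic and that of transfection cannot be told apart in a comparison with NT.

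Many ZNF proteins join their fingers to a KRAB domain, which recruits the corepressor TRIM28 and, through it, enzymes that pack DNA into heterochromatin. Genes of this kind lie in clusters, mainly on chromosome 19, that grew by duplication, and many silence transposable elements. Their coding sequences consist largely of finger repeats joined by a conserved linker, and their RNAs are known to be scarce and short-lived. Other ZNF genes have little in common with these beyond the name and encode ribosome assembly factors, RNA-binding proteins or parts of the mitotic apparatus.

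Both mimics carry the same seed, bases 2 to 8 of the microRNA, which pairs with the 7-base site TGCTGCT in a target. Their mature sequences (RefSeq, GRCh38.p14) are shown because every site below is a match to this stretch, given in capitals.
hsa-miR-195-5p: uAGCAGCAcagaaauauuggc
hsa-miR-497-5p: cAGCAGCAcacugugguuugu

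The repeats that make up a member are shown for ZNF91 and ZNF460, the members with the highest ratios of Ago2-IP to total RNA among those with enough reads to rank. ZNF91, a repressor of retrotransposons of the SVA type, had 31 fingers and ZNF460 had 11, counted on the translated coding sequence. For each gene the neighbouring pair most alike is given, from hg19 chromosome 19, with the codons of the zinc-binding cysteines and histidines in capitals. The ZNF91 pair lies on the minus strand at chr19:23544812-23544895 and chr19:23544728-23544811, and the ZNF460 pair on the plus strand at chr19:57802585-57802668 and chr19:57802669-57802752.
ZNF91 residues 296 to 323: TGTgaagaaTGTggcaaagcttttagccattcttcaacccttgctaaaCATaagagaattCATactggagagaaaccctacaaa
ZNF91 residues 324 to 351: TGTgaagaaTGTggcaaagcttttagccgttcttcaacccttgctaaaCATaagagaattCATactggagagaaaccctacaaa
ZNF460 residues 226 to 253: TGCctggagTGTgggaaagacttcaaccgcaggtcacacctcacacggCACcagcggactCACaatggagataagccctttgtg
ZNF460 residues 254 to 281: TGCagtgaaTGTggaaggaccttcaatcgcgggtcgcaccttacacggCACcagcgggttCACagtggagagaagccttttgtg
The ZNF91 pair was identical at 98.8% of 84 bases and the ZNF460 pair at 78.6%. Over all 24 neighbouring pairs of ZNF91 the median identity was 82.1%, and over the 9 pairs of ZNF460 it was 60.7%. A read of 36 bases fits inside 1 such repeat, so reads of near-identical repeats and of related genes may not be told apart.

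Of the 249 members, 240 matched a protein-coding transcript of GENCODE 44 on GRCh37 (hg19), 229 by current symbol and 11 by a former one. The 9 without a match were ZNF252, ZNF720, ZNF271, ZNF542, ZNF673, ZNF37BP, ZNF518A, ZNF274 and ZNF280A. Chromosome 19 held 83 of the matched members (34.6%), against 6.10% of the 9447 matched genes at the same floor. A KRAB-like motif was found in 119 members, of which 65 lie on chromosome 19, and a SCAN-like motif, the mark of a domain through which such proteins pair, in 17. The proteins held 2364 fingers in all, with a median of 9.5 per member, and 48.5% of the fingers were followed by the linker. ZNF142 had 36 fingers, the most. In 6 members, among them ZNF259 (now ZPR1) and ZNF330, none was found. Member transcripts had a median A+U share of 55.9%, against 52.0% for all genes at the floor, and a median coding length of 1728 bases, against 1404.

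Most members were expressed at a low level. In NT total RNA 143 members lay between RPKM 2 and 5, 62 between 5 and 10, and 44 at 10 or more. In total RNA the median was 4.37 RPKM in NT and 4.24 and 4.32 RPKM with the miR-195 and miR-497 mimics. In Ago2-IP it was 2.35, 2.60 and 2.09 RPKM in the same order. All genes at the floor had medians of 12.7 to 13.6 RPKM in total RNA and of 3.10 to 5.18 RPKM in Ago2-IP. Members thus lay further below other genes in total RNA than in Ago2-IP. They took 0.559% of the summed RPKM in NT total RNA and 1.17% in NT Ago2-IP. With miR-195 the shares were 0.553% and 0.812%. Those with miR-497 were 0.529% and 1.12%. None of the members was at 0 in any library.

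**Figure D1:**
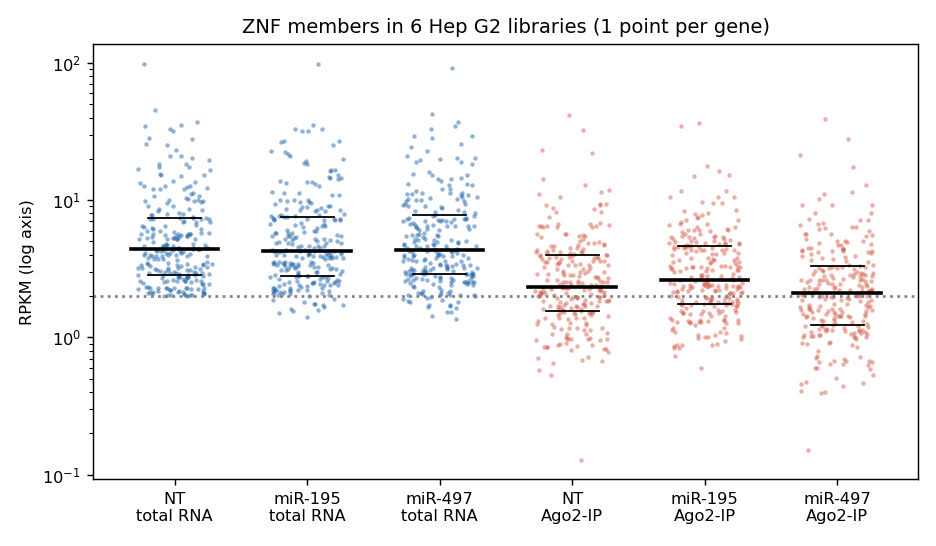
RPKM (log axis) of the 249 ZNF members in each of the 6 libraries, 1 point per gene, with total RNA in blue and Ago2-IP in red. Thick lines are medians, thin lines quartiles, and the dotted line is the floor of RPKM 2 in NT total RNA that chose the members; medians were 4.24 to 4.37 RPKM in total RNA and 2.09 to 2.60 RPKM in Ago2-IP.

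The levels in NT total RNA chose the members and are given as a description. The highest was that of ZNF207, a spindle and kinetochore protein that binds the checkpoint protein BUB3, with 98.6, 98.0 and 91.8 RPKM in total RNA (NT, miR-195, miR-497). In Ago2-IP ZNF207 had 42.0, 34.9 and 38.8 RPKM. ZNF146, made of fingers with little else, followed with 45.1, 35.5 and 37.3 RPKM in total RNA and 10.6, 9.57 and 9.29 RPKM in Ago2-IP. ZNF638, a nuclear nucleic acid-binding protein, had 33.3, 32 and 28.4 RPKM in total RNA and 22.1, 15.2 and 17.5 RPKM in Ago2-IP. ZNF217, a transcriptional corepressor amplified in breast cancer, had 28.2, 27.0 and 25.5 RPKM in total RNA and 12.9, 16.2 and 10.2 RPKM in Ago2-IP. Just inside the floor lay ZNF845, ZNF45 and ZNF780B with 2.01, 2.02 and 2.03 RPKM, and just outside it ZNF41, ZNF615 and ZNF238 with 1.996, 1.9958 and 1.9924 RPKM.

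Reads behind each value were inferred from the RPKM steps for 208 of the 249 members. The median member had 364 to 430 reads in the total RNA libraries and 79.5 to 142 in the Ago2-IP libraries. Under 20 reads were found for 10 members in the miR-497 Ago2-IP library and for 1 in the miR-195 Ago2-IP library. Members are ranked below only where at least 20 reads were inferred in each library compared, which left 198 to 208 of the 249, and the highest and lowest named are those of the ranked members. The intervals below are 95% intervals for counting error in these libraries, with no spread between cultures. Of 9 hepatocyte markers, 8 had at least 10 RPKM in each total RNA library, and of 8 markers of other cell types 7 were under 1 RPKM there, the exception being ACTA2 at 22.1 to 36.2 RPKM. The summed level of these other markers was 22.4 to 36.8 RPKM in total RNA and 1.68 to 4.12 RPKM in Ago2-IP.

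The first comparison set Ago2-IP against total RNA and asked which RNAs were bound to Argonaute 2 more than their abundance would give. The libraries were prepared with or without poly-A selection, and which of them were selected is not given in the sources used here, so a difference in selection between the fractions and a difference in binding cannot be told apart in these ratios. In NT cells the median member had 0.494 times its total RNA level in Ago2-IP, a log2 ratio of −1.02. The median over all genes at the floor was 0.260 times, a log2 ratio of −1.94, so members lay 1.90-fold above it. At least 1.5-fold above the median of all genes lay 175 of 249 members (70.3%), where 28.6% of all genes did. At least 1.5-fold below it lay 9 members (3.61%), where 28.9% of all genes did. On the ratios as deposited, with no centring on the median of all genes, 5 members had at least 1.5-fold more RPKM in Ago2-IP and 181 at least 1.5-fold less. Counts without centring, here and below, were made for members only and have no share of all genes beside them. The same direction was found in both other pairs of libraries, which share no library with NT. With miR-195 the median log2 ratio was −0.82 for members and −1.38 for all genes. For miR-497 the values were −1.16 and −2.30. Members therefore exceeded all genes by 0.93 on the log2 scale in NT, and by 0.56 and 1.14 with the miR-195 and miR-497 mimics. NT total RNA is both the level that chose the members and the denominator in NT, which is why all genes were held to the same floor.

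**Figure D2:**
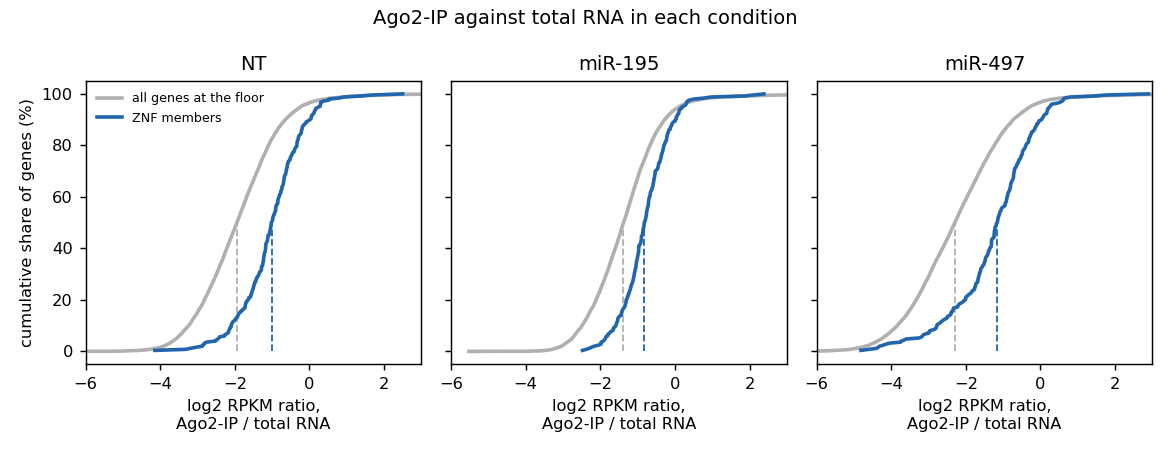
Cumulative share of genes (%) by the log2 ratio of Ago2-IP to total RNA RPKM in NT, miR-195 and miR-497 cells, for the 249 ZNF members (blue) and all genes at the floor (grey); dashed lines mark medians, and the few genes outside the axis are not drawn. The member curve lies to the right of the grey one in each condition, with medians of −1.02 against −1.94, −0.82 against −1.38 and −1.16 against −2.30.

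The members furthest above the other genes were more abundant in Ago2-IP than in total RNA. ZNF460 had 2.05, 2.02 and 1.54 RPKM in total RNA and 11.5, 10.5 and 11.4 RPKM in Ago2-IP (NT, miR-195, miR-497). Its ratio in NT was 5.64 (interval 4.82 to 6.60), and the Ago2-IP values exceeded every total RNA value. ZNF91 had 3.53, 3.42 and 3.21 RPKM in total RNA and 11.8, 14.9 and 11.1 RPKM in Ago2-IP. Its ratio was 3.35 (3.0 to 3.73). ZNF124, a KRAB-like member with 8 fingers, had 12.3, 10.0 and 10.2 RPKM in total RNA and 32.3, 36.4 and 27.7 RPKM in Ago2-IP, a ratio of 2.62 (2.35 to 2.92) in NT. All 3 carry the KRAB-like motif, and each had more RPKM in every Ago2-IP library than in any total RNA library. Of the 36-base words in the ZNF91 transcript 16.2% occur in another gene, against 0.917% for ZNF460.

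At the other end of the ranked members stood ZNF593, ZNF777 and ZNF24. ZNF593, a ribosome assembly factor with 1 finger, had 15.3, 18.3 and 29.5 RPKM in total RNA and 2.11, 4.07 and 1.59 RPKM in Ago2-IP. Its NT ratio was 0.137 (0.0896 to 0.211), on 23 reads in Ago2-IP, and 53.5% of its 36-base words occur in another gene. ZNF777, with a KRAB-like motif, had 4.09, 4.59 and 6.05 RPKM in total RNA and 0.580, 1.31 and 0.458 RPKM in Ago2-IP, with an NT ratio of 0.142 (0.0975 to 0.206). ZNF24, a SCAN-domain factor, had 27.9, 26.3 and 24.4 RPKM in total RNA and 4.87, 5.06 and 4.80 RPKM in Ago2-IP, with an NT ratio of 0.175 (0.159 to 0.191). Their intervals lay below 0.260, the median ratio of all genes. Among members without inferred reads ZNF511 was lower still, with 35.3 RPKM in total RNA and 3.56 RPKM in Ago2-IP in NT, a ratio of 0.101, and ZNF330 had a ratio of 0.148. The lowest member of all, also without inferred reads, had a log2 ratio of −4.14, against −3.31 for ZNF511.

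Among the members, the ratio of Ago2-IP to total RNA moved with the architecture of the protein. The 43 members with 0 to 4 fingers had a median log2 ratio of −1.53 in NT, the 77 with 5 to 9 fingers −1.07 and the 120 with 10 or more −0.71. At least 1.5-fold above the median of all genes lay 16 of 43, 56 of 77 and 100 of 120 of them. The 119 KRAB-like members had a median of −0.68, and 103 of them lay 1.5-fold above, whereas the 121 without the motif had −1.23 and 69. KRAB-like members of chromosome 19 reached −0.57, with 60 of 65 above, and those of other chromosomes −0.91, with 43 of 54 above. The same order of KRAB-like and other members was seen in cells with the miR-195 mimic (−0.70 and −0.90) and the miR-497 mimic (−0.72 and −1.61). Over the 240 matched members Spearman's rho between finger number and the NT ratio was 0.42, a description over genes of the same 2 libraries.

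**Figure D3:**
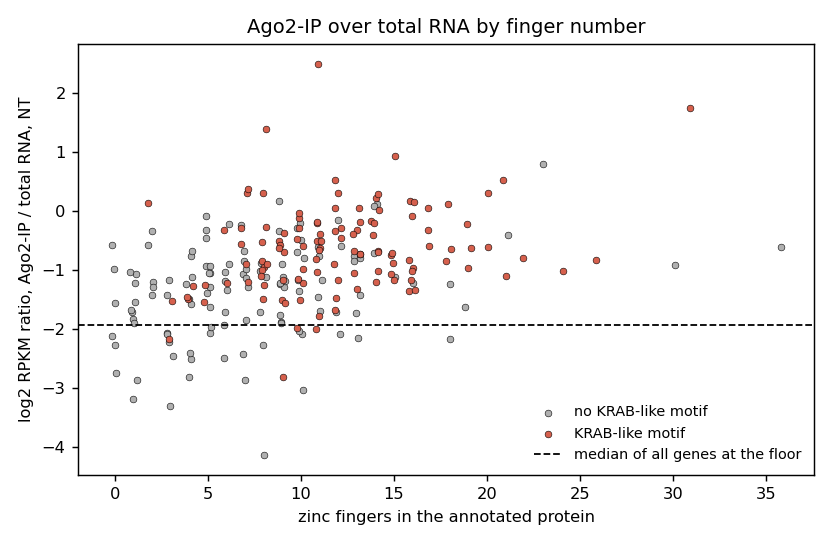
Log2 ratio of Ago2-IP to total RNA RPKM in NT cells against the number of zinc fingers in the annotated protein, for the 240 matched ZNF members, with KRAB-like members in red and the others in grey (points spread sideways within a number). The dashed line is the median of all genes at the floor, −1.94; medians were −1.53 at 0 to 4 fingers, −1.07 at 5 to 9 and −0.71 at 10 or more.

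Other properties moved with the same ratio, and their part in it was not tested. Low-abundance genes had higher ratios. The tiers were taken from NT total RNA, which is also the denominator of the NT ratio, and how far this sets the order was not tested. At RPKM 2 to 5 the median log2 ratio was −0.81 for members and −1.34 for all genes, at 5 to 10 it was −1.07 and −1.54, and at 10 or more −1.40 and −2.29. In each of the 3 tiers members thus lay above all genes, by 0.54, 0.47 and 0.89. In the mimic-treated cells, whose ratios do not use the NT library, Spearman's rho between the NT total RNA level and the ratio was −0.356 (miR-195) and −0.318 (miR-497) over the 240 matched members and −0.485 and −0.357 over all genes. Longer transcripts had higher ratios in NT, with a rho for transcript length of 0.32 in members and 0.54 in all genes, and for coding length of 0.22 and 0.50. Member transcripts had a median length of 4003 bases, against 3195 in all genes. For A+U share the rho in NT was 0.49 in members, above the 0.42 for finger number, and 0.18 in all genes. This order did not hold with miR-195, where it was 0.09 in members and −0.09 in all genes, against 0.26 for finger number in members. With miR-497 it was 0.66 in members and 0.48 in all genes, against 0.40 for finger number in members. The tertiles that follow are those of NT. In the highest tertile of transcript A+U share (at least 56.4%) members had −0.71 and all genes −1.76, in the middle tertile −1.06 and −1.90, and in the lowest (under 46.7%) −1.68 and −2.21. Sequence shared with other genes moved with it as well. The 70 members with at least 5% of their 36-base words in another gene had a median of −0.51, and the other 170 had −1.14, still 0.80 above all genes. How the authors' mapping placed reads that fit several genes is not given in the sources used here.

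Families close to the members are given for comparison. Of the ZFP genes at the floor 7 of 12 lay at least 1.5-fold above the median of all genes in NT, of the ZSCAN genes 6 of 7, of the ZKSCAN genes 2 of 4 and of the ZBTB genes 14 of 26, against the same 28.6% of all genes. Their median log2 ratios were −1.08, −1.22, −1.10 and −1.32. The KLF genes, a family with few fingers, had −1.51 and 2 of 8 above. The partners of the KRAB domain had a median closer to that of all genes than to that of the members. The 30 corepressor and heterochromatin genes at the floor had a median of −2.16, against −1.94 for all genes. Of these 30, 6 lay above, where 28.6% of all genes did, and 9 at least 1.5-fold below, where 28.9% did. TRIM28 itself had 107, 99.3 and 139 RPKM in total RNA and 13.6, 21.3 and 8.95 RPKM in Ago2-IP. SETDB1, the histone methyltransferase it recruits, had 9.0, 8.59 and 8.80 RPKM in total RNA and 3.90, 4.03 and 3.93 RPKM in Ago2-IP. In NT the log2 ratio was −2.97 for TRIM28, among the 9 below, and −1.21 for SETDB1, among the 6 above.

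In total RNA few members differed from NT by 1.5-fold. In bulk RNA of this kind fewer cells with a transcript and less of it per cell cannot be told apart. With miR-195 the median log2 ratio to NT was −0.04 for members and −0.03 for all genes. At least 1.5-fold above the median of all genes lay 3 members (1.20%), where 4.92% of all genes did, and at least 1.5-fold below it 7 members (2.81%), where 5.93% did. Without centring the counts were 1 and 8. With miR-497 the medians were −0.07 and 0.02. There 13 members (5.22%) lay above, where 8.85% of all genes did, and 5 (2.01%) below, where 3.41% did. Between the mimics, miR-195 against miR-497, 1 member lay above (0.402%), where 1.89% did, and 8 below (3.21%), where 3.48% did, with medians of 0.02 and −0.08. In each of these 3 comparisons and both directions the share of members was below that of all genes.

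ZNF622, a factor for maturation of the large ribosomal subunit, had the lowest ratio with miR-195 of all members ranked. It had 19.5, 8.38 and 13.2 RPKM in total RNA, and 4.18, 9.77 and 2.94 RPKM in Ago2-IP (NT, miR-195, miR-497). Both mimic values of total RNA were below NT, at 0.429 times (0.381 to 0.483) for miR-195 and 0.678 times (0.612 to 0.750) for miR-497. In Ago2-IP the miR-195 value was above both others, at 2.34 times NT (1.87 to 2.92), where the median over all genes at the floor was 1.41 times. The fold enrichment score, which is the ratio of Ago2-IP to total RNA with a mimic divided by that ratio in NT, was 5.45 (4.23 to 7.0) for miR-195 and 1.04 (0.740 to 1.46) for miR-497. The medians of all genes for these scores were 1.43 and 0.834. ZNF622 holds a site in its 3′UTR, where an A follows the site in the transcript, and another in its coding sequence. They are shown with the site in capitals, on the minus strand of hg19 chromosome 5, at chr5:16451661-16451689 and chr5:16463238-16463266.
ZNF622 3′UTR: aggagagaccctttTGCTGCTacttcatt
ZNF622 coding: ttcacagatggcgaTGCTGCTttggaatt

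ZNF346, which encodes a protein that binds double-stranded RNA, showed the same order of libraries. It had 5.70, 3.44 and 4.47 RPKM in total RNA and 3.35, 6.69 and 2.32 RPKM in Ago2-IP. Its total RNA ratio with miR-195 was 0.604 (0.522 to 0.698) and its Ago2-IP ratio 2.00 (1.66 to 2.42), which gave a score of 3.32 (2.61 to 4.21). The medians of all genes were 1.41 for that Ago2-IP ratio and 1.43 for the score. A call 1.5-fold above the median took 2.12 in Ago2-IP, which ZNF346 did not reach. With miR-497 the score was 0.885 (0.655 to 1.20). A single 3′UTR site was found in ZNF346, in a transcript other than the one with the longest coding sequence.

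ZNF367, a factor with 2 fingers, was low with both mimics and without a 7-base site. It had 5.69, 2.52 and 2.70 RPKM in total RNA and 4.48, 3.29 and 2.03 RPKM in Ago2-IP. The total RNA ratios were 0.443 (0.383 to 0.513) for miR-195 and 0.474 (0.412 to 0.545) for miR-497. In Ago2-IP the ratios were 0.735 (0.607 to 0.891) and 0.453 (0.353 to 0.581), so in ZNF367, unlike ZNF622 and ZNF346, Ago2-IP with miR-195 was below NT. ZNF92 and ZNF273 were also low with miR-497 in total RNA. ZNF92 had 9.91, 7.29 and 6.16 RPKM in total RNA, a ratio of 0.622 (0.559 to 0.692). Both are KRAB-like genes of chromosome 7 with 11.2% and 14.6% of their 36-base words in another gene.

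Highest against NT with miR-195 in total RNA among ranked members stood ZNF280A, ZNF117 and ZNF791. ZNF117 had 2.72, 4.08 and 2.67 RPKM, a ratio of 1.5 (1.32 to 1.7) with miR-195, and ZNF791 had 6.48, 9.03 and 6.54 RPKM, a ratio of 1.39 (1.23 to 1.58). In both the miR-497 value lay next to NT. Highest with miR-497 stood ZNF593, ZNF703 and ZNF672. ZNF703, a corepressor studied in luminal breast cancer, had 3.29, 3.86 and 6.18 RPKM, a ratio of 1.88 (1.57 to 2.24). ZNF672 had 6.24, 8.42 and 10.8 RPKM, a ratio of 1.74 (1.55 to 1.94).

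**Figure D4:**
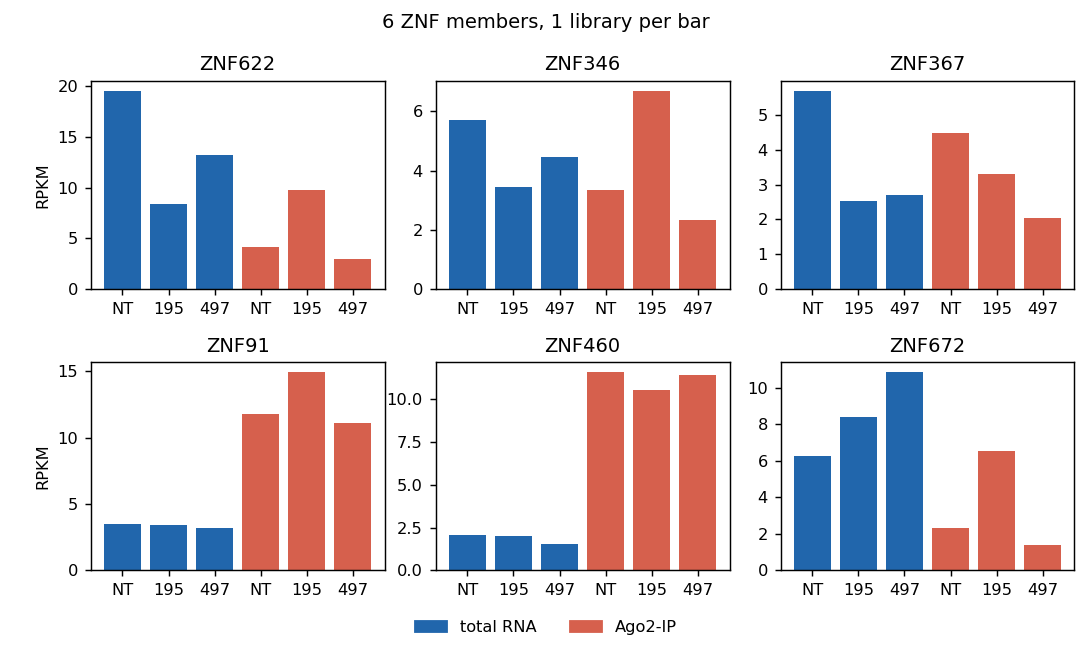
RPKM of ZNF622, ZNF346, ZNF367, ZNF91, ZNF460 and ZNF672 in the 6 libraries, 1 bar per library (NT, miR-195, miR-497), with total RNA in blue and Ago2-IP in red and a separate axis from 0 for each gene. ZNF622 and ZNF346 were lowest in total RNA and highest in Ago2-IP with miR-195, and ZNF91 and ZNF460 had more RPKM in every Ago2-IP library than in any total RNA library.

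In Ago2-IP the members lay low with miR-195 relative to other genes. Their median log2 ratio to NT was 0.11, against 0.50 for all genes at the floor. At least 1.5-fold below the median of all genes lay 86 members (34.5%), where 14.4% of all genes did, and at least 1.5-fold above it 19 (7.63%), where 17.9% did. Without the centring 47 members lay above and 11 below, so the members were low relative to other genes and not in RPKM. The KRAB-like members had a median of −0.07, with 57 of 119 below and 2 above, and the others 0.33, with 26 of 121 below and 16 above. By finger number the medians were 0.45 at 0 to 4 fingers, 0.13 at 5 to 9 and −0.05 at 10 or more. Lowest of the ranked members were the KRAB-like ZNF100 and ZNF642 (now ZFP69) and the finger gene ZNF714. ZNF714 had 3.97, 2.31 and 2.74 RPKM in Ago2-IP, a ratio of 0.582 (0.505 to 0.672). Its total RNA values of 4.43, 3.13 and 3.40 RPKM followed the same order. Highest of the ranked members was ZNF672 with 2.31, 6.55 and 1.37 RPKM in Ago2-IP, a ratio of 2.84 (2.28 to 3.54) with miR-195. ZNF580, without inferred reads, was higher, with 1.05, 4.38 and 0.476 RPKM in Ago2-IP and a ratio of 4.15. The highest member of all, also not ranked, had a log2 ratio of 2.50, against 2.05 for ZNF580.

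With miR-497 the median of the members in Ago2-IP lay close to that of other genes. The median log2 ratio was −0.22, against −0.26 for all genes, with 12 members above (4.82%), where 5.27% of all genes were, and 15 below (6.02%), where 7.10% were. Without centring 2 lay above and 44 below. The lowest of the ranked members were ZNF367, ZNF799 and ZNF92. ZNF92 had 6.41, 5.05 and 2.98 RPKM in Ago2-IP, a ratio of 0.466 (0.372 to 0.582). ZNF703, with 16 reads in the miR-497 library and so not ranked, had a ratio of 0.414 (0.239 to 0.719), and ZNF580 had 0.451. The lowest member of all, also not ranked, had a log2 ratio of −1.49, against −1.27 for ZNF703. Highest of the ranked members was ZNF673, with 0.669, 1.39 and 1.28 RPKM in Ago2-IP. Its ratio with miR-497 was 1.92 (1.16 to 3.16), on 28 reads in NT and 34 with miR-497. The intervals of ZNF280A and ZNF550, the next highest, included 1. In the direct comparison of the mimics in Ago2-IP the members had a median of 0.27 and all genes 0.76, with 108 members below (43.4%), where 18.2% of all genes were, and 26 above (10.4%), where 21.7% were. Without centring the counts were 83 above and 5 below.

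The fold enrichment score sets the change in Ago2-IP against that in total RNA. With miR-195 its median was 0.14 on the log2 scale for members and 0.51 for all genes, with 16 members above (6.43%), where 15.5% of all genes were, and 80 below (32.1%), where 11.1% were, and without centring 48 above and 5 below. Of the ranked members ZNF622 and ZNF346 had the highest scores, followed by ZNF358, which had 1.16, 2.86 and 0.913 RPKM in Ago2-IP and a score of 2.49 (1.61 to 3.84). ZNF580, not ranked, had a score of 3.57. The lowest of the ranked members was ZNF84, a KRAB-like gene, with 2.33, 1.73 and 2.63 RPKM in Ago2-IP and a score of 0.594 (0.474 to 0.744). With miR-497 the median was −0.14, against −0.26, with 26 members above (10.4%), where 7.93% of all genes were, and 30 below (12%), where 17.7% were, and without centring 6 above and 52 below. These counts depended on the settings: with a pseudocount of 0.5 they were 11 and 21, and over the 198 ranked members 13 and 10. Relative to all genes the member median with miR-497 was 0.12 for the score, 0.035 in Ago2-IP and −0.09 in total RNA. Of the ranked members ZNF673 had the highest score with miR-497, 1.84 (1.08 to 3.15). ZNF10, known as KOX1 and the source of the KRAB domain used in engineered repressors, had a score of 1.66 (1.19 to 2.31). ZNF672, among the highest with miR-195 in Ago2-IP, had the lowest score with miR-497 of the ranked members, 0.343 (0.238 to 0.496). ZNF703, on its 16 reads, had 0.221 (0.124 to 0.393), and ZNF580 had 0.319. Both scores share the NT libraries.

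The A+U share of the transcript moved with these changes, with a sign and size that differed between comparisons, and its part in them was not tested. In the 240 matched members Spearman's rho between A+U share and the log2 ratio was −0.69 for miR-195 in Ago2-IP and −0.74 for miR-497 in total RNA. Over all genes at the floor it was −0.57 and −0.77. For miR-195 in total RNA it was −0.27 in members and −0.28 in all genes. For miR-497 in Ago2-IP it had the other sign, 0.24 and 0.28. For the miR-195 score the values were −0.63 and −0.47, and for the miR-497 score 0.62 and 0.73. Within the highest, middle and lowest tertile of A+U share the median with miR-195 in Ago2-IP was −0.13, 0.20 and 0.84 for members and 0.16, 0.46 and 0.92 for all genes. Members lay below all genes in each tertile, by 0.30, 0.26 and 0.084, against 0.39 over all members. In total RNA with miR-497 the medians were −0.20, −0.05 and 0.46 for members and −0.21, 0.00 and 0.42 for all genes, so the difference of −0.09 over all members came to 0.020, −0.048 and 0.041 within the tertiles.

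**Figure D5:**
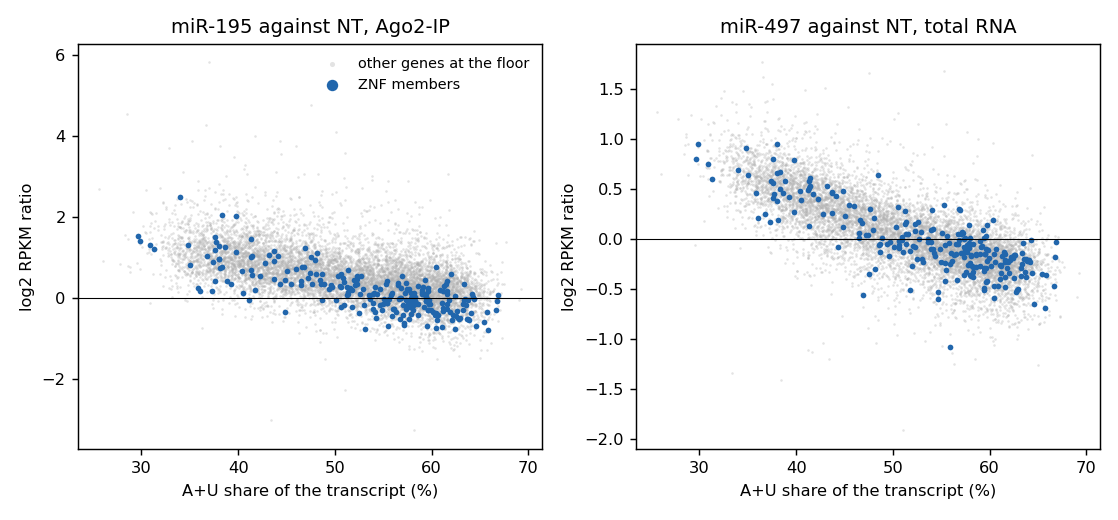
Log2 RPKM ratio to NT against the A+U share of the transcript (%), for Ago2-IP with miR-195 (left) and total RNA with miR-497 (right), with ZNF members in blue and other matched genes at the floor in grey. Ratios were lower at higher A+U share in both groups of genes, with Spearman's rho of −0.69 and −0.74 for members.

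Sites for the seed were found in a like share of members' 3′UTRs as of other genes and in a smaller share of their coding sequences. A 7-base site was found in a 3′UTR of 62 of 240 members (25.8%), against 28.6% of all genes at the floor with a 3′UTR, although member 3′UTRs were longer, with a median of 1644 bases against 1146. Per 10000 bases of the chosen 3′UTR there were 1.12 sites in members and 1.82 in all genes. In coding sequence 35 members (14.6%) held a site, against 34.3% of all genes, and the density was 1.07 against 3.16 sites per 10000 bases. The members with most 3′UTR sites, 3 each, were ZNF609, a partner of the Integrator complex, and ZNF8. Those of ZNF609 lie on the plus strand of hg19 chromosome 15 at chr15:64974225-64974253, chr15:64974686-64974714 and chr15:64977487-64977515, and are shown to set them beside that of ZNF622. None of the 3 is followed by an A, whereas a site in the coding sequence of ZNF609 is.
ZNF609 site 1: ccaagcccttggtcTGCTGCTggagcagt
ZNF609 site 2: tccccactaagtccTGCTGCTtcttattc
ZNF609 site 3: tttctcctggagttTGCTGCTgagctgcc
ZNF609 had 9.87, 8.88 and 10.1 RPKM in total RNA and 3.37, 5.20 and 3.20 RPKM in Ago2-IP, with a miR-195 score of 1.71 (1.5 to 1.96), against a median of 1.43 over all genes. ZNF8 had 2.20, 2.11 and 2.67 RPKM in total RNA and 2.82, 2.99 and 2.89 RPKM in Ago2-IP, with a score of 1.10 (0.758 to 1.60). ZNF622, with 1 site in its 3′UTR, had the highest score of the ranked members, 5.45. A 3′UTR site followed by an A was found in 10 members, ZNF622 among them. Also among these, ZNF704 had a miR-195 score of 1.18 (1.07 to 1.31) and ZNF780B 0.726 (0.596 to 0.884), both below the median of all genes. The part of the number of sites or of the A in the score was not tested.

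Members with a 3′UTR site differed little from those without in total RNA. With miR-195 their median log2 ratios were −0.04 and −0.05, a difference of 0.01, whereas over all genes the difference was −0.11. With miR-497 the difference was 0.05 in members and −0.09 in all genes. In Ago2-IP with miR-195 members with a site had a median of 0.26 and those without 0.02, a difference of 0.25, against −0.01 over all genes. With miR-497, which has the same seed, the medians were −0.23 and −0.25, a difference of 0.03, against 0.01 over all genes. The miR-195 ratio in Ago2-IP also moved with A+U share (rho −0.69 in members) and with the KRAB-like motif. Their part in the difference by site was not tested. The difference in score was 0.22 for miR-195 and 0.04 for miR-497, against 0.11 and 0.07 over all genes. ZNF395 held the most coding sites, 6, and none in a 3′UTR. It had 3.75, 2.39 and 3.93 RPKM in total RNA and 1.18, 1.56 and 0.626 RPKM in Ago2-IP. Its total RNA ratio with miR-195 was 0.637 (0.553 to 0.734) and its score 2.08 (1.52 to 2.85). ZNF318, a regulator of immunoglobulin splicing, held 5 sites in its coding sequence and none in a 3′UTR. It had 12.4, 12.6 and 11.4 RPKM in total RNA and 4.62, 6.05 and 4.41 RPKM in Ago2-IP, so its total RNA with miR-195 lay next to NT. Its score was 1.29 (1.14 to 1.46), against a median of 1.43 over all genes.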

How the data were processed

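RNA of Hep G2 cells was sequenced by the authors on an Illumina instrument in 6 libraries, 1 per condition and fraction. Per the labels and the submitters' processing notes, reads were mapped to hg19 and the deposited RPKM values were made with CASAVA 1.7. The gene annotation and the treatment of reads that fit several genes are not given in the sources used here. The table has 21891 lines, and 28 symbols stand on several lines, whose values were averaged.

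The members and lists were chosen with earlier results of these data known. Ratios were taken on the log2 scale without a pseudocount and set against all genes at RPKM 2 or more in NT total RNA, with a gene called where it lay at least 1.5-fold above or below their median ratio. With 1 library per group no p-value was calculated, and ratios were not rescaled between libraries. The depth implied by annotated lengths was 24700000 to 31000000 reads in total RNA and 10700000 to 16800000 in Ago2-IP. Reads were inferred as the smallest whole numbers in the ratio of a gene's RPKM values after division by each library's step. Of 15487 genes tried 11504 gave reads, and 933 were left out for an implied length too long for the gene. On simulated reads 97.7% of genes came out equal. The simulation started from genes with inferred reads and gave each gene 1 length, so it cannot show how often real genes depart from this. The length so implied lay within 1.5-fold of the annotated transcript for 159 of 201 members compared (79.1%).

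Fingers (C, 2 to 4 residues, C, 12 residues, H, 3 to 5 residues, H), linkers, a KRAB-like motif (at most 3 mismatches) and a SCAN-like motif (at most 5) were counted on translated GENCODE 44 coding sequences, since a protein table was not used here. Sites were read from spliced transcripts on their own strand, and printed stretches were checked against the GRCh37 genome with samtools 1.23.1. Of named members, the 10 highest in NT total RNA, the 3 highest and 3 lowest in each comparison with at least 20 inferred reads per library, those next to the floor, and those with most sites or most and fewest fingers were taken. Python 3.11.15, pandas 2.3.3, numpy 2.4.6 and scipy 1.17.1 were used. The alternatives were a pseudocount of 0.5, other floors, a minimum of 20 reads, duplicate lines kept apart, coding members only, other site lengths and, added after the data were seen, tertiles of A+U share, tiers of level and members with little shared sequence.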

Additional observations from a re-analysis of the deposited data

Results flagged for a closer look

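Relative to all genes at the same floor, the median of the members stood on opposite sides of 0 with the 2 mimics in Ago2-IP, at −0.39 with miR-195 and 0.035 with miR-497 on the log2 scale. The fold enrichment score did the same, at −0.38 with miR-195 and 0.12 with miR-497. The sign with miR-497 depended on the genes taken. In the highest, middle and lowest tertile of A+U share it was −0.026, 0.057 and −0.098 in Ago2-IP and −0.0074, 0.082 and −0.071 for the score. With 1 library per condition the differences between the mimics were not tested, and each pair shares its NT libraries.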

How the results depend on the processing

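No paired analysis was possible because each condition and fraction has 1 library. On the log2 scale, as member median minus the median of all genes, the planned floors, pseudocount, read minimum and treatment of duplicate lines kept each median inside its 95% order interval. That interval runs over the member genes of the same libraries and holds no spread between cultures. Settings that keep nearly the same genes can hardly leave it. The settings added after the data were seen moved some. For Ago2-IP against total RNA in NT the difference of 0.93 was 0.53 in the lowest tertile of A+U share, 0.54 at RPKM 2 to 5, 0.47 at 5 to 10 and 0.81 for members with little shared sequence. For miR-195 in total RNA, −0.02, it was 0.035 in the highest tertile, −0.10 at RPKM 2 to 5 and −0.068 at 5 to 10. For miR-497 in total RNA, −0.09, it was 0.020, −0.048 and 0.041 in the highest, middle and lowest tertile and −0.24 at RPKM 2 to 5. For miR-195 in Ago2-IP, −0.39, it was −0.30, −0.26 and −0.084 in the tertiles, −0.53 at RPKM 2 to 5 and −0.24 at 5 to 10. For miR-497 in Ago2-IP, 0.035, it was −0.026 in the highest and −0.098 in the lowest tertile. For the miR-195 score, −0.38, it was −0.26 in the middle tertile, −0.13 in the lowest and −0.14 at RPKM 5 to 10. For the miR-497 score, 0.12, it was −0.0074 in the highest and −0.071 in the lowest tertile and 0.22 at RPKM 10 or more. For miR-195 against miR-497 it was, in total RNA, 0.021 in the highest and −0.083 in the lowest tertile, 0.036 at RPKM 5 to 10 and 0.14 at 10 or more, and, in Ago2-IP, −0.30, −0.35 and −0.026 in the tertiles and −0.22 at RPKM 5 to 10. The difference in total RNA with miR-195 between members with and without a 3′UTR site, 0.01, was −0.12 for the 10 members with an 8-base site. The causes were not tested. Counts of members called moved more than the medians. They were made for members only, with no share of all genes at the same setting. They thus show how the member counts depend on the setting, and not how members stand against all genes. With a fold of 2 in place of 1.5, 117 members lay above and 4 below for Ago2-IP against total RNA in NT in place of 175 and 9, 5 and 20 for miR-195 in Ago2-IP in place of 19 and 86, 1 and 2 for miR-497 there in place of 12 and 15, 8 and 10 for the miR-195 score in place of 16 and 80, 1 and 15 for the miR-497 score in place of 26 and 30, and 14 and 28 between the mimics in Ago2-IP in place of 26 and 108. In total RNA a fold of 2 left 0 above and 2 below for miR-195, then 0 above and 1 below for miR-497, and 0 and 0 between the mimics. With a pseudocount of 0.5 the counts were 1 and 3, 7 and 2, and 1 and 4 in those total RNA comparisons, 10 and 62 for miR-195 in Ago2-IP, 3 and 7 for miR-497 there, 17 and 88 between the mimics, and 8 and 55 and 11 and 21 for the scores. With at least 20 reads, over 198 to 208 members, 5 lay below for Ago2-IP against total RNA in NT, 6 above and 3 below in total RNA with miR-497, 5 below between the mimics in total RNA, 8 above between them in Ago2-IP, 10 above for the miR-195 score and 13 above and 10 below for the miR-497 score.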
